A study of Ovis aries with 16 samples.

Results

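THRB, ESR1 and PPARG encode nuclear receptors, proteins that bind a small lipid-soluble ligand and act on transcription at the DNA. THRB is the beta receptor for thyroid hormone, a hormone that brain maturation depends on, and ESR1 is the alpha receptor for estrogen. PPARG is a receptor for fatty acid derivatives, known for adipocyte differentiation and for restraining inflammatory transcription in macrophages and microglia. Thyroid hormone and PPARG receptors bind DNA with a retinoid X receptor as partner, while estrogen receptors bind as pairs. All of them recruit coactivators such as PPARGC1A or corepressors.

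The 3 genes were followed by every probe whose name or description on an ovine array names them, which gave 4 of 15008 probes, 1 for THRB, 1 for PPARG and 2 for ESR1, for 3 of the 850 genes that could be named. RNA came from the hippocampus of 16 chronically catheterized late-gestation fetal sheep. Normoxia controls (NC, n = 3) and hypoxia controls (HC, n = 5) received no ketamine, while the normoxia (NK, n = 4) and hypoxia (HK, n = 4) ketamine groups received 3 mg/kg intravenously before the stimulus. The stimulus was 30 min of maternal ventilatory hypoxia or of normoxia, with 23.5 h of normoxic recovery before the tissue was taken. Most fetuses were twins, normoxia or hypoxia was assigned by pregnancy, and the labels do not say which fetuses shared a ewe, so p-values measure the spread between these arrays.

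The members were chosen from values measured on these same arrays. THRB and ESR1 came into view because HK and HC did not overlap, and the values that brought PPARG into view are not given. Differences that involve HC or HK are therefore given for the 3 genes as descriptions, with standard errors and no test. NK-NC shares no array with HK-HC and was tested. Its standard error came from a single fit to all groups, HC and HK among them. The NK-NC tests and intervals are therefore not fully separate from the choice of THRB and ESR1. For PPARG the choice may also have used NC or NK arrays, so its NK-NC test cannot be taken as separate from it.

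The probe sequences of THRB and PPARG, read from the scanner files, are printed because each of these genes rests on that single 60-base probe. The capitals in the PPARG probe mark a stop codon that closes the frame starting at its first base, and the THRB probe is open in 1 of the 3 forward frames.
THRB (A_70_P017056): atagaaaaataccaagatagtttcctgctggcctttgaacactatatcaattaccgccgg
PPARG (A_70_P051021): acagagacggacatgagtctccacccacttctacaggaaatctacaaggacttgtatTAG
Against the other 15007 probes of the array, on both strands, the longest exact run shared was 12 bases for THRB and 13 bases for PPARG. For ESR1, A_70_P017071 starts at base 5590 of an ovine ESR1 record, and A_70_P042936 starts at base 1410 of an assembled transcript described as a partial (7%) match to bovine ESR1, so that its naming as ESR1 rests on that description. Both ESR1 probes are 60 bases long and their longest runs shared with another probe were 15 and 17 bases.

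Values are log2 of the background-subtracted intensity minus the array's 75th percentile. That percentile ranged from 881.5 to 1199.5 intensity units, and between 76.7% and 82.6% of spots were marked well above background, a threshold that the scanner software puts at 13 standard deviations of the background. All 4 member probes were well above background on all 16 arrays, and 12545 probes that were so on at least 3 arrays were tested. On 2 arrays some markers of the tissue stood apart, more of them in HC replicate 5 than in HK replicate 2. NEUROD1, a transcription factor of hippocampal granule neurons, was at -5.92 in HC replicate 5 and -1.32 in HK replicate 2, against 0.51 to 2.01 on the other 14 arrays. GNRH1, a hypothalamic peptide, was well above background on these 2 arrays alone, and SST, an interneuron peptide, was at 1.85 in HC replicate 5 against at least 4.19 elsewhere. Differences are given with and without these 2 arrays where they matter, while correlations were taken over all 16 arrays only. In bulk RNA fewer cells of a type and less RNA per cell cannot be told apart.

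THRB was lower in hypoxia without ketamine than in any other group. Its levels were -2.72, -2.38 and -2.72 in NC and -2.98, -2.45, -2.35 and -3.08 in NK. They were -2.82, -3.09, -3.16, -3.30 and -3.44 in HC and -2.72, -2.63, -2.35 and -2.69 in HK. By these values every HC array lay below every NC and every HK array, while NC, NK and HK overlapped one another, and 2 NK arrays lay among the HC values. The group means were -2.60 ± 0.17 in HK, -2.61 ± 0.19 in NC, -2.72 ± 0.37 in NK and -3.16 ± 0.23 in HC (mean ± SD, n = 4, 3, 4 and 5). In this order the neighbors HK, NC and NK differed by less than their SDs. On the intensity scale the HC arrays ran from 91.1 to 170 units and the HK arrays from 138 to 200 units.

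**Figure D1:**
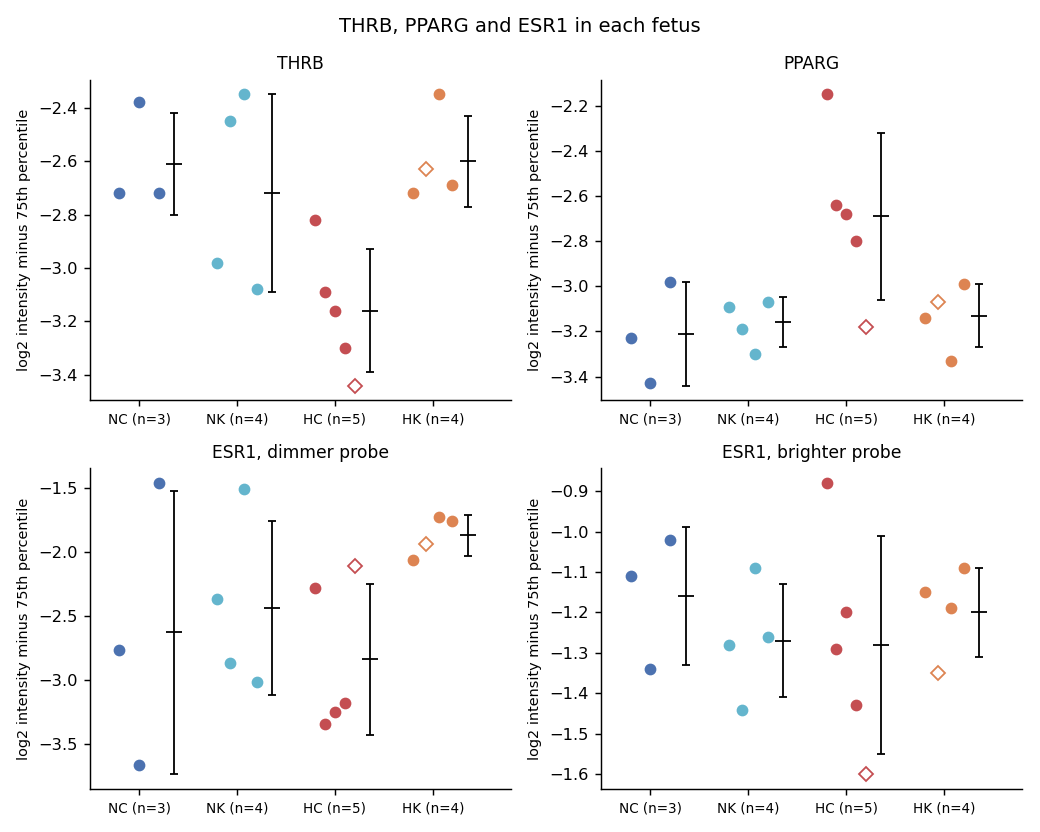
Log2 level (intensity minus the array's 75th percentile) of the 4 member probes in each fetus, with black bars for group mean and SD. Horizontal offsets only separate the arrays, and open diamonds are HC replicate 5 and HK replicate 2, in which NEUROD1 and GNRH1 stood apart. The 5 HC values of THRB lie at or below -2.82 and every NC and HK value at or above -2.72, while 4 of 5 HC values of PPARG lie above every NC value.

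By the fit THRB was 1.47-fold lower in HC than in NC, a log2 difference of -0.55 (SE 0.18), which normexp background correction turned to 0.28 and, without 30 spots of high local background, to -0.43. HK-HC was 0.57 (SE 0.17), 1.48-fold higher in HK. Both contain the 5 HC arrays, so they are not separate evidence. Between the ketamine groups, HK-NK was 0.12 (SE 0.18). The ketamine difference in hypoxia minus that in normoxia was 0.67 (SE 0.26), against -0.17 under normexp correction and 0.21 in the deposited values. The criterion for a tested difference was an unadjusted p under 0.05 by limma. In normoxia THRB did not pass it, with NK-NC at -0.11 (95% interval -0.52 to 0.30, limma adjusted p = 1).

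Within slides, each of which held all 4 groups, HC-NC of THRB was -0.40 on slide 1 and -0.58 on slide 2, where a single NC array lay. HK-HC was 0.28 on slide 1 and 0.78 on slide 2. HC replicate 5 had the lowest THRB level, and without it HC-NC was -0.49 and HK-HC was 0.50. In the authors' deposited values, which hold low signals near a common floor, HC reached from 8.40 to 8.68 and overlapped NC (8.65 to 8.71) and HK (8.61 to 8.82). HC minus NC was -0.18 on that scale, and HK minus HC was 0.18. The HC values of THRB also overlapped those of NC and HK under normexp correction and without background subtraction. Under normexp correction without the 30 spots they overlapped those of HK but not of NC.

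PPARG had the opposite pattern and was higher in hypoxia without ketamine. Its levels were -3.23, -3.43 and -2.98 in NC and -3.09, -3.19, -3.30 and -3.07 in NK. In HC they were -2.15, -2.64, -2.68, -2.80 and -3.18, and in HK -3.14, -3.07, -3.33 and -2.99. Of the 5 HC arrays, 4 lay above every other array of the series, and HC replicate 5 lay among the NC, NK and HK values. The means were -2.69 ± 0.37 in HC (n = 5), -3.13 ± 0.14 in HK (n = 4), -3.16 ± 0.11 in NK (n = 4) and -3.21 ± 0.23 in NC (n = 3), and the last 3 differed by less than their SDs.

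By the fit PPARG was 1.44-fold higher in HC than in NC, a log2 difference of 0.53 (SE 0.18). HK-HC was -0.44 (SE 0.17), 1.36-fold lower in HK. Under normexp correction they were 0.88 and -0.17. HK-NK was 0.03 (SE 0.17), and the ketamine difference in hypoxia minus that in normoxia was -0.50 (SE 0.25). In normoxia ketamine left PPARG short of the criterion, with NK-NC at 0.05 (95% interval -0.35 to 0.46, limma adjusted p = 1). Without HC replicate 5, HC-NC was 0.65 and HK-HC was -0.57. Within slides HC-NC was 0.94 on slide 1 and 0.09 on slide 2, where NC had 1 array, and HK-HC was -0.71 and -0.28. On the deposited scale HC minus NC was 0.18 and HK minus HC was -0.13.

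Markers of microglia and macrophages, cells in which PPARG acts, and of endothelium were among the genes past the criterion in HC-NC. So were the neuron marker GRIA1, lower in HC (-0.65, SE 0.26), and the red blood cell marker AHSP, higher in HC (2.52, SE 0.69). The other tested neuron markers, GRIN1 (-0.96, SE 0.46) and NEUROD1 (-1.63, SE 1.33), were also lower in HC but did not pass. The red blood cell marker HBB (0.43, SE 0.44) did not pass. Of 12 listed microglial markers 5 were tested, and their summed level ran from 0.498 to 0.625 times the 75th percentile in NC, 0.537 to 0.638 in NK, 0.828 to 2.09 in HC and 0.569 to 1.02 in HK. CD14, FCER1G and FCGR1A passed the criterion upward in HC-NC, and CD14 and FCGR1A downward in HK-HC. ITGAM was well above background on 15 of 16 arrays. FCGR2B was so on 0 NC, 1 NK, 3 HC and 0 HK arrays, and without it, a choice made after seeing the data, the summed level of the other 4 ran from 0.496 to 0.613 in NC, 0.526 to 0.628 in NK, 0.813 to 2.06 in HC and 0.559 to 1.01 in HK. Of 9 endothelial markers 6 were tested, with a summed level of 1.13 to 1.23 in NC, 0.9 to 1.43 in NK, 1.3 to 3.96 in HC and 1.14 to 1.89 in HK. SELP (4.16, SE 0.98) and ICAM1 (2.75, SE 0.69), adhesion molecules of activated endothelium, passed upward in HC-NC, and 0 of the 6 passed in HK-HC. Over all probes 10.6% passed in HC-NC and 4.77% in HK-HC. The other endothelial markers did not pass in HC-NC and did not share a direction. PECAM1 was at 0.09 and FLT1 at 0.38, while TEK was at -0.42 and KDR at -0.39, with every HC array of KDR below every NC array.

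Over the 16 arrays PPARG correlated with the mean level of the 5 microglial markers at r = 0.56, and at 0.05 after the group means were removed. Its values were 0.68 and 0.37 with the endothelial markers, 0.05 and 0.53 with hippocampal neuron markers, and -0.28 and -0.55 with astrocyte markers. THRB correlated with microglial markers at -0.53 and 0.00, with endothelial markers at -0.26 and 0.52, and with neuron markers at 0.40 and 0.28. With markers of meninges and mesenchyme it was at 0.34 and 0.43, and with those of hypothalamus and pituitary at -0.02 and -0.42. The brighter ESR1 probe correlated with neuron markers at 0.57 and 0.61 and with choroid plexus markers at -0.51 and -0.54. For the dimmer probe these values were -0.22 and -0.30, and -0.28 and -0.40. Without FCGR2B the microglial values were 0.54 and -0.03 for PPARG and -0.56 and -0.11 for THRB. The neuron mean covers 3 genes, NEUROD1 among them, and was at -3.39 in HC replicate 5, against -1.38 as the lowest HK value. HC replicate 5 also had the lowest level of THRB and of the brighter ESR1 probe, and the lowest PPARG level within HC. The neuron correlations may therefore lean on this array, and they were not computed without it. All these correlations are descriptions, and the part of these cells in the results was not tested.

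**Figure D2:**
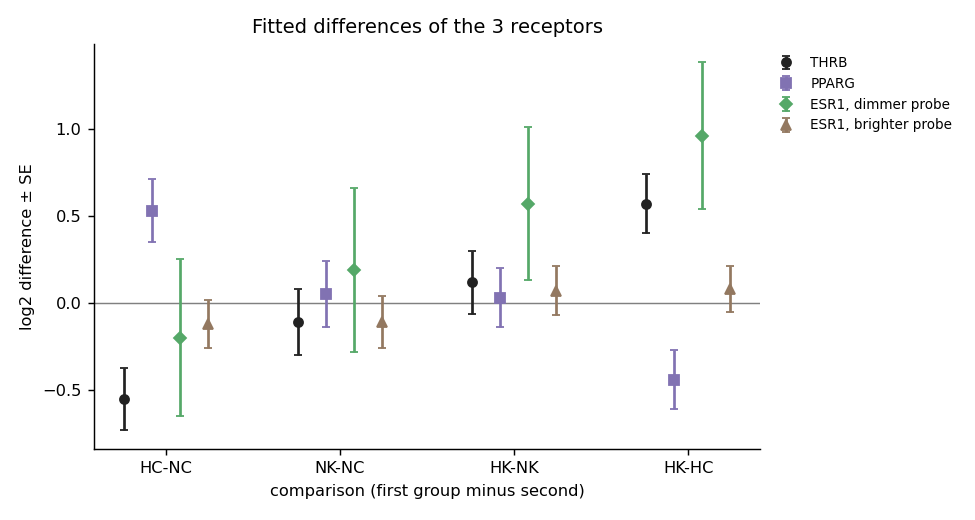
Fitted log2 differences of the 4 member probes in the 4 comparisons, first group minus second, with bars for 1 standard error. THRB and PPARG lie on opposite sides of 0 in HC-NC (-0.55 and 0.53) and in HK-HC (0.57 and -0.44), and near 0 in NK-NC and HK-NK.

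The 2 probes of ESR1 did not show the same pattern. By the dimmer probe, A_70_P017071, levels were -2.77, -3.67 and -1.46 in NC, -2.37, -2.87, -1.51 and -3.02 in NK, and -2.28, -3.35, -3.25, -3.18 and -2.11 in HC. In HK they were -2.06, -1.94, -1.73 and -1.76. Every HK array lay above every HC array, by 0.05 at the nearest, and inside the range of NC and of NK. The SD was 0.16 in HK against 1.11 in NC, 0.68 in NK and 0.59 in HC. The means were -1.87 in HK, -2.44 in NK, -2.63 in NC and -2.84 in HC, and NK, NC and HC differed by less than their SDs.

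By the brighter probe, A_70_P042936, levels were -1.11, -1.34 and -1.02 in NC, -1.28, -1.44, -1.09 and -1.26 in NK, -0.88, -1.29, -1.20, -1.43 and -1.60 in HC, and -1.15, -1.35, -1.19 and -1.09 in HK. No pair of groups was separated, and the 4 group means lay between -1.28 and -1.16. The highest and the lowest array of the series were both HC arrays.

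HK-HC of ESR1 was 0.96 (SE 0.42) by the dimmer probe, 1.95-fold higher in HK, and 0.08 (SE 0.13) by the brighter one. HC-NC was -0.20 (SE 0.45) and -0.12 (SE 0.14), and by the dimmer probe it was -0.72 without NC replicate 2 and 0.39 without NC replicate 3. HK-NK was 0.57 (SE 0.44) and 0.07 (SE 0.14). In normoxia neither probe passed the criterion, with NK-NC at 0.19 (95% interval -0.82 to 1.20) by the dimmer and -0.11 (95% interval -0.43 to 0.22) by the brighter probe (limma adjusted p = 1 for both). Over the 16 arrays the probes correlated at r = 0.39 (rho = 0.51), and at 0.40 after the group means were removed, as a description. HK-HC of the dimmer probe was 0.81 on slide 1 and 1.11 on slide 2, 1.14 without HC replicate 5, and 0.32 in the deposited values, where HK (8.79 to 9.09) and HC (8.45 to 8.97) overlapped. By this probe HK and HC also overlapped without background subtraction and under normexp correction, with or without the 30 spots.

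**Figure D3:**
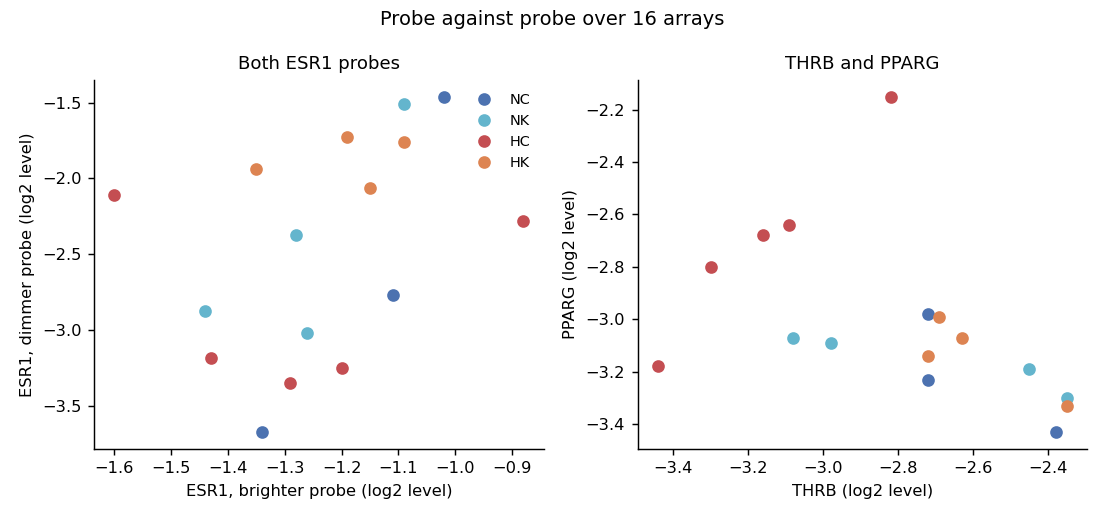
Log2 level of one probe against another over 16 arrays, colored by group, for the 2 ESR1 probes (left) and for THRB and PPARG (right). The ESR1 probes share an r of 0.39, and in the right panel 4 of 5 HC arrays have a PPARG level above that of every other array, at THRB levels shared with 2 NK arrays.

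Between genes, THRB and PPARG correlated at r = -0.46 over the 16 arrays (rho = -0.65) and at 0.12 after group means were removed. PPARG and the brighter ESR1 probe correlated at 0.38 before and 0.77 after, where the points share the high HC replicate 1 and the low HC replicate 5. THRB and the dimmer ESR1 probe were at 0.33 and 0.06. These are descriptions over arrays that share groups and normalization.

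In HC-NC the groups did not overlap for 1 of the 4 member probes, that of THRB, against 7.65% of all probes tested. In HK-HC they did not overlap for 2 of 4, against 0.957%. The members were chosen partly on HK-HC, which shares its HC arrays with HC-NC, so nothing is read from either count. In NK-NC and HK-NK they did not overlap for 0 of 4, where the share over all probes was 3.56% and 3.32%.

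Among the other nuclear receptors NR3C2 passed the criterion in HK-NK, where it was lower in HK. THRA and NR5A1 were well above background on at most 1 array per probe and were not tested. The 5 tested were NR3C1 (the glucocorticoid receptor), NR3C2 (the mineralocorticoid receptor, abundant in hippocampal neurons), PGR (the progesterone receptor), ESR2 (estrogen receptor beta) and PPARA. By the criterion 0 of 5 passed in HC-NC, NK-NC and HK-HC, where limma called 10.6%, 1.79% and 4.77% of all probes, and 1 of 5 in HK-NK, where it called 5.18%. After adjustment 2 of all 12545 probes passed in HC-NC, neither of them a probe of these 5 genes, and 0 in the other comparisons. The 5 receptors had median differences of -0.32, 0.01, 0.15 and -0.10 in HC-NC, NK-NC, HK-HC and HK-NK, against -0.02, 0.01, 0.02 and -0.01 over all probes.

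Of their 7 tested probes 2 did not overlap in HC-NC, the dimmer NR3C2 probe and the brighter PGR probe, both lower in HC, against 7.65% of all probes, and 0 in the other comparisons. The dimmer PGR probe had the other sign in HC-NC, at 0.46 (SE 0.43) against -0.20 (SE 0.14) for the brighter one, and its groups overlapped.

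NR3C2 had 2 probes. By its brighter probe, levels were 4.12, 3.47 and 3.37 in NC, 4.07, 3.27, 3.39 and 3.70 in NK, 2.51, 3.18, 3.47, 3.14 and 1.95 in HC, and 2.13, 1.73, 3.82 and 2.72 in HK. HK replicate 3 lay among the normoxic arrays and the other 3 HK arrays below every NK array. HK-NK was -1.01 (SE 0.41, limma adjusted p = 0.91), 2.01-fold lower in HK. By the second probe HK-NK was -1.01 (SE 0.34, limma adjusted p = 0.907) and HC-NC was -0.80 (SE 0.35, adjusted p = 0.433), and both met the criterion. HC-NC by the brighter probe was also -0.80 (SE 0.42, limma adjusted p = 0.545) and did not. By the brighter probe the lowest arrays were HC replicate 5 and HK replicate 2, in which NEUROD1 was also lowest. Without HK replicate 2 HK-NK of the brighter probe was -0.72 and no longer met the criterion. The call also ended without NK replicate 1 (-0.85), NK replicate 4 (-0.98) or HK replicate 1 (-0.85).

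The other 4 receptors did not pass in any comparison. NR3C1 lay between -5.01 and -3.63 and PPARA between -5.18 and -4.25 over the 16 arrays, both well above background throughout. PGR lay between -5.87 and -5.10 by its brighter probe. ESR2 lay between -8.04 and -5.28 by its brighter probe, which was well above background on 7 of 16 arrays. The interaction of ketamine and hypoxia among these 5 lay between -0.21 for NR3C2 and 0.66 for ESR2, whose SE was 0.75. That of THRB, 0.67 (SE 0.26), contains HK-HC, the comparison that brought THRB into view. Nothing is therefore read from setting it beside these receptors.

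**Figure D4:**
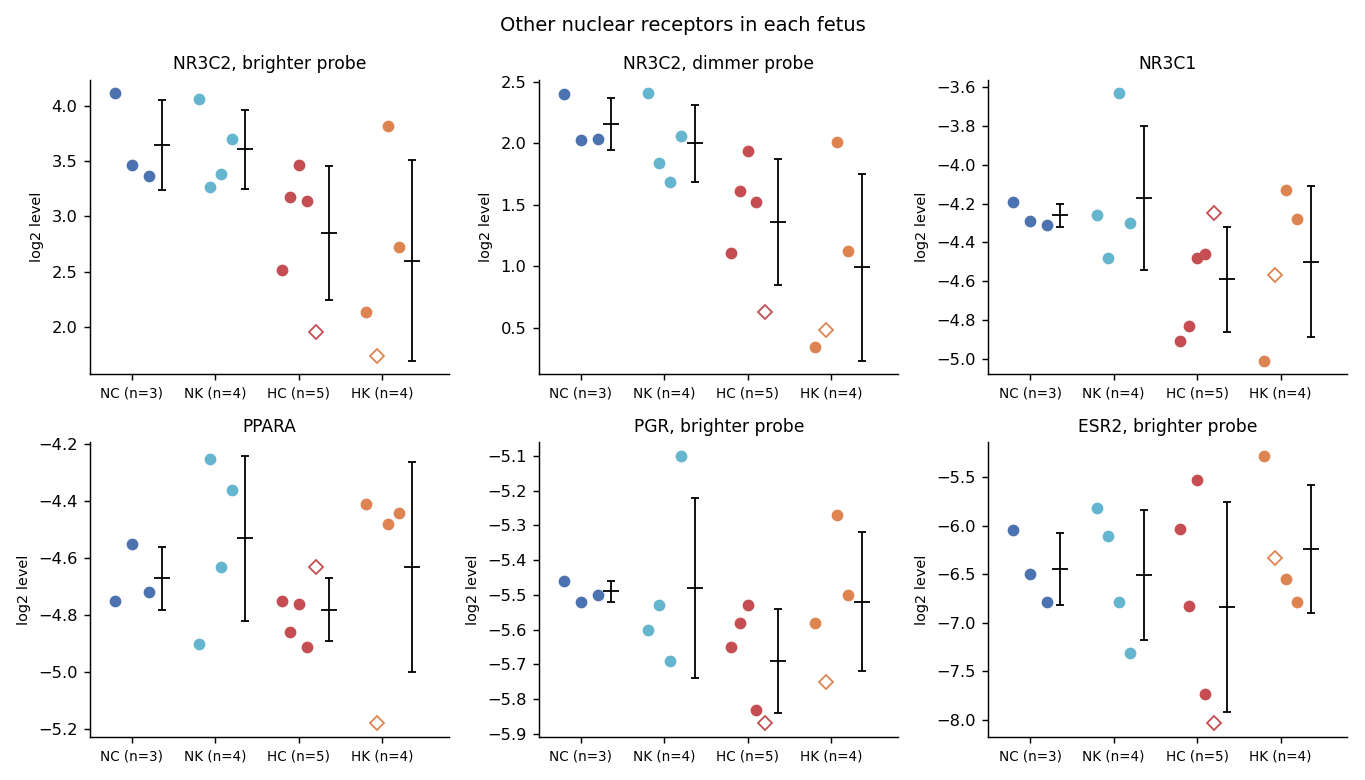
Log2 level of the other tested nuclear receptors in each fetus, with black bars for group mean and SD and open diamonds for HC replicate 5 and HK replicate 2. NR3C2 lies between 3.27 and 4.12 in the normoxic groups by its brighter probe and reaches down to 1.73 in the hypoxic ones. For the dimmer NR3C2 probe and the brighter PGR probe every HC value lies below every NC value.

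Among coregulators, PPARGC1A, a coactivator and partner of PPARG, PRMT1, a coactivator, and HSP90AA1, a chaperone of steroid receptors, did not pass the criterion in any of the 4 comparisons. PPARGC1A was at -0.20 (SE 0.24) in HC-NC and 0.37 (SE 0.22) in HK-HC.

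Of the thyroid hormone axis 7 of 11 genes with a probe were tested, and 1 of 7 passed in HC-NC, against 10.6% of all probes. This was TSHR, the receptor for thyrotropin. It was 1.49 higher (SE 0.68, limma adjusted p = 0.455), with 1 of 3 NC and 4 of 5 HC arrays well above background. The call was lost under 7 other settings that keep all arrays, with values from 0.06 to 1.49, among them the slide (1.39) and the replicate number (1.11) as a block, under both of which TRHR, the receptor for thyrotropin-releasing hormone, passed instead. The call also ended, with values from 1.20 to 1.51, when any 1 of NC replicates 2 and 3, NK replicate 2, HC replicates 2, 3 and 5 and HK replicates 2 and 3 was left out. NRGN, a neuronal gene that thyroid hormone regulates, was at -0.81 (SE 0.50) in HC-NC, HR, a corepressor that thyroid hormone induces, at -0.15 (SE 0.15), and ME1, a lipogenic target, at -0.13 (SE 0.16). The 7 genes had a median of -0.13 for HC-NC and of 0.28 for HK-HC, where 7 of 7 had a positive sign and 0 passed. Over all probes the medians were -0.02 and 0.02, and 4.77% passed in HK-HC. The 7 differences in HK-HC ran from 0.03 (SE 0.31) for ALB to 0.53 (SE 1.82) for TTR, so nothing is read from their shared sign. TTR, the carrier of thyroid hormone made by choroid plexus, ran from -1.45 to 6.39 over the arrays outside the 2 that stood apart, and its HC-NC difference was 0.13 (SE 1.98).

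Of the estrogen axis 12 of 15 genes were tested, of which 2 passed in HC-NC, 1 in NK-NC, 1 in HK-NK and 2 in HK-HC, against 10.6%, 1.79%, 5.18% and 4.77% of all probes. In HC-NC 1 was higher, STAR, which carries cholesterol to the first step of steroid synthesis, and 1 was lower, IGF1, a growth factor. STAR cleared the background threshold on 0 of 3 NC and 5 of 5 HC arrays, so by the main values its mean was at least 3.82-fold higher in HC (limma adjusted p = 0.102). Its mean was at least 1.61-fold higher in NK (3 of 4 arrays, adjusted p = 1), although the lowest NK level (-7.36) lay below every NC level (-7.22 to -6.95). It was 0.92 higher in HK-NK on the log2 scale (SE 0.33, adjusted p = 0.907). These bounds use, for every NC array, the higher of STAR's signal and the weakest signal that cleared the threshold. They are ratios of group means that leave out the spread between arrays, and without background subtraction HC-NC was 0.72 on the log2 scale. IGF1 was at -0.59 (SE 0.27, limma adjusted p = 0.454), with every HC array below every NC array. In HK-HC prolactin (PRL) was 0.74 higher (SE 0.31, limma adjusted p = 0.972) near the background, and IGF1R was lower, at -0.35 (SE 0.13, adjusted p = 0.972), with no overlap. Of the genes that estrogen receptors induce, PGR by its brighter probe was at -0.20 (SE 0.14) and CTSD at 0.05 (SE 0.10) in HC-NC, and neither passed. XBP1, also on this list, was at 0.34 (SE 0.21) in HC-NC and did not pass either.

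The IGF1 call ended, with values from -0.61 to -0.39, without NC replicate 2 or 3, NK replicate 1 or 2, HC replicate 3, 4 or 5, or HK replicate 1. That of PRL ended without HC replicate 1 or HK replicate 2 or 3 (0.51 to 0.67), and that of IGF1R without HK replicate 4 (-0.26). Other settings that keep all arrays ended the STAR call in NK-NC 7 times (0.05 to 1.18, and 0.83 with the replicate block), in HK-NK 3 times (0.06 to 0.29) and in HC-NC under normexp correction (1.48). They ended those of IGF1 5 times (-0.46 to 0.72, and -0.45 with the replicate block), PRL 3 times (0.04 to 0.62) and IGF1R 3 times (-0.24 to -0.19). The STAR call in NK-NC also ended without NC replicate 1, 2 or 3 or NK replicate 2, 3 or 4 (0.60 to 0.87).

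Of the PPARG and lipid axis 21 of 24 genes were tested, of which 2 passed in HC-NC and 1 in each other comparison, against 10.6% of all probes in HC-NC, 1.79% in NK-NC, 5.18% in HK-NK and 4.77% in HK-HC. In HC-NC 1 was higher, CEBPB, a transcription factor that precedes PPARG in adipocyte differentiation, at 1.26 (SE 0.47, limma adjusted p = 0.347). CPT1A, which admits fatty acids to mitochondria, was lower at -0.86 (SE 0.34, limma adjusted p = 0.377), with no overlap. In HK-HC CEBPB was lower at -1.09 (SE 0.43, limma adjusted p = 0.972), and in HC it ran from -4.90 to -2.23 against -4.55 to -4.26 in NC. SLC2A4, the insulin-responsive glucose transporter, was 1.74 higher in NK-NC (SE 0.52, limma adjusted p = 1) and lower in HK-NK at -1.33 (SE 0.48, adjusted p = 0.907), with 1 of 3 NC arrays well above background. The medians over the 21 were -0.05 in HC-NC, 0.07 in NK-NC, -0.16 in HK-NK and -0.02 in HK-HC. Lipid genes that PPARG induces did not pass in HC-NC, though LPL did in the deposited values, without background subtraction, under normexp correction without the 30 spots and with probes averaged. UCP1, an uncoupling protein of brown fat, passed in HC-NC without background subtraction and under that normexp correction. By the main values UCP1 (-1.15, SE 0.64) and LPL were both lower in HC. PLIN2 was at 0.16 (SE 0.16), LPL at -0.69 (SE 0.39), SCD at 0.20 (SE 0.21) and FABP5 at -0.05 (SE 0.15).

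The CEBPB call in HC-NC ended without NC replicate 1 (1.18), and in HK-HC without HC replicate 2 or 4 or HK replicate 2 or 3 (-0.99 to -0.86). The CPT1A call ended without NC replicate 1 (-0.75). Normexp correction ended the calls of CPT1A (-0.27), of CEBPB in HK-HC (-0.47) and of SLC2A4 in NK-NC (1.19), and 4 settings ended that of SLC2A4 in HK-NK (-0.74 to 0.01). With only the compared groups in the fit CEBPB lost its call in HC-NC (1.26) and HK-HC (-1.09).

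Among 730 other named genes, each by its brightest tested probe, those whose levels over the 16 arrays were most like THRB were NFAT5 (r = 0.80), SLIT2 (0.76), TRPM7 (0.73), RABGGTB (0.73) and YWHAH (0.70). After group means were removed their correlations with THRB were 0.65, 0.65, 0.76, 0.69 and 0.55. For PPARG they were SLC2A3 (0.80), JUNB (0.78), CCN1 (0.75), NFKBIA (0.75) and CEBPB (0.74), and without group means 0.66, 0.77, 0.56, 0.60 and 0.51. For the brighter ESR1 probe they were NRG1 (0.80), ACVR1B (0.73), SLC17A5 (0.71), CPE (0.68) and SFXN1 (0.68), and without group means 0.82, 0.73, 0.73, 0.69 and 0.66. The dimmer ESR1 probe had no gene in common with the brighter one among its first 5, which were KITLG (0.77), BRS3 (0.76), FST (0.74), NDUFA12 (0.72) and HCRTR2 (0.72). These are descriptions over 16 arrays, and the points share slides and groups.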

How the data were processed

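RNA of 16 fetal hippocampi was measured on one-color (Cy3) ovine arrays on 2 slides, and the groups came from the sample labels. The authors deposited the scanner output, with the intensity of each spot background-subtracted by Feature Extraction 10.1.1.1 per the file headers, and a table of log2 values, which was quantile normalized and used here as an alternative. The submitters' processing notes name limma and R 2.15.1. Here log2 of the processed intensity was taken without control and outlier spots, spots of a probe were averaged, and the 75th percentile of each array was subtracted. Probes that cleared the background threshold on 3 or more of the 16 arrays were fitted with limma 3.58.1 (R 4.3.3), all 4 groups in a single model, two-sided, at an unadjusted p under 0.05 (the criterion, after the study's methods) and with Benjamini-Hochberg adjustment over 12545 probes. The fit was tested on simulated data. The number of arrays limits the precision. Symbols came from the array annotation and RefSeq gene names of the assembly ARS-UI_Ramb_v3.0, for 1380 of 15008 probes, and each gene was read by its probe with the highest mean. The members and lists were chosen with earlier results of these data known. Named were the members, the receptors with a probe, apart from items not reported here, the list genes past the criterion and the 5 genes most like each member's leading probe. Other genes named were chosen after their values were seen. Deviations from group means correlated at 0.37, 0.31 and 0.21 for NC and NK arrays of the same replicate number in the labels. For HC and HK they correlated at 0.40, 0.31, 0.07 and 0.13. Such arrays also shared a slide and a row on it, so shared ewes cannot be told apart from position. The main fit held no pair term, and its tests are unpaired. The replicate number entered only as a block over all 4 groups in an alternative fit.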

Additional observations from a re-analysis of the deposited data

Results flagged for a closer look

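In the HK group PPARA had a low array, HK replicate 2 at -5.18, with the next value at -4.48, a gap that is 0.91 of the group's range. This was the 1 group marked among 33 looked at, and chance marks about 1 in 20. The ketamine difference in hypoxia minus that in normoxia passed the criterion for STAR, at -1.13 (SE 0.47, limma adjusted p = 1). It also passed for SLC2A4, at -2.12 (SE 0.69, limma adjusted p = 1). The background threshold was cleared on 0 of 3 NC arrays for STAR and 1 of 3 for SLC2A4.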

How the results depend on the processing

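Of the 12 alternatives that keep all arrays, normexp background correction changed signs. It gave 0.28 for THRB in HC-NC, 0.42 for THRB and 0.05 for ESR1 in NK-NC, 0.72 for IGF1 in HC-NC and 0.01 for SLC2A4 in HK-NK. In HC-NC it gave 0.34 for the dimmer and 0.07 for the brighter ESR1 probe, and the interaction of ketamine and hypoxia was -0.17 for THRB and -0.05 for the dimmer ESR1 probe. On 6 arrays 30 spots had a local background over 100 units above their own signal, and with these spots left out, chosen after seeing the data, the same values were -0.43, -0.07 and -0.10 for THRB and ESR1, and 2 other receptors, PPARA and PGR, passed in HK-HC. With the mean of the ESR1 probes NK-NC was 0.04. In HC-NC 1 other receptor, NR3C1, passed with the slide as a block and 1, the same gene, with the replicate block. The replicate block gave NK-NC of -0.03 for THRB, -0.10 for ESR1 and 0.05 for PPARG and changed no call of the members there. With single arrays left out NK-NC ran from -0.23 to 0.01 for THRB (0.00 without NC replicate 2, 0.01 without NK replicate 4), from -0.20 to -0.04 for ESR1, from -0.05 to 0.17 for PPARG (-0.05 without NC replicate 2), and from -0.33 to 0.78 for the dimmer ESR1 probe (-0.33 without NC replicate 2, -0.12 without NK replicate 3), and none passed the criterion. The count of other receptors ran from 0 to 1 in HC-NC (1, NR3C2, without HC replicate 3 or HK replicate 3), in HK-NK (0 without NK replicate 1 or 4 or HK replicate 1 or 2) and in HK-HC (1, PPARA, without HK replicate 2). Without both HC replicate 5 and HK replicate 2, chosen after seeing the data, the count was 0 in HK-NK and 1 in HK-HC, HK-HC was 0.51 for THRB, 1.17 for the dimmer ESR1 probe and -0.59 for PPARG, and HC-NC was -0.49 for THRB and 0.65 for PPARG.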
